A study of Mus musculus with 4 samples.

Results

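The receptors for glutamate and GABA, the main excitatory and inhibitory transmitters of the brain, were examined as a gene group in RNA-seq of the embryonic mouse forebrain. All rows of the count table with the symbol of an AMPA (Gria), NMDA (Grin), kainate (Grik), delta (Grid) or metabotropic glutamate (Grm) receptor subunit, or of a GABA-A (Gabr) or GABA-B (Gabbr) receptor subunit, were taken. This gave 47 of 24982 genes. Forebrain was micro-dissected at E10.5 (the embryonic day) in 2 groups of 2 libraries each. Controls had the genotype Chd7 +/f, which holds a single floxed allele, and their label names no Cre. Conditional knockout (cKO) libraries had the genotype Sox1 cre+/-; Chd7 f/f, in which Cre recombinase named for Sox1, a gene of the early neural tube, acts on floxed alleles of Chd7, a chromatin remodeller. Only the cKO label names Cre, so an effect of Cre itself and that of Chd7 loss cannot be told apart. The study asked how CHD7 acts on the expression of neurogenic genes. The labels give no number of embryos per library, and the p-values therefore reflect only the variation among the 4 libraries, which may be technical.

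AMPA, kainate and NMDA receptors are cation channels opened by glutamate, and the metabotropic receptors signal through G proteins. GABA-A receptors are chloride channels built mostly of alpha, beta and gamma subunits, and GABA-B receptors are G protein-coupled dimers. In the adult brain these receptors carry synaptic transmission. In the embryonic brain transmitter receptors are present before synapses form, on newborn neurons and on some progenitor cells, and have been linked to neuron migration and progenitor division.

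Libraries held 16581252 to 17096522 counts. Chd7, in CPM (counts scaled to library size), was at 339 and 345 in the controls, replicates 1 and 2 in this order, and at 136 and 132 in the cKO libraries. Marker lists moved in the same comparison. Over all genes tested, 2.13% were lower and 1.57% higher at an adjusted p under 0.05 by edgeR. The shares at an unadjusted p under 0.05 were 9.10% lower and 8.43% higher. Of 25 pan-neuronal genes 6 (Elavl3, Mapt, Tubb3, Nsg1, Elavl4 and Syt1) were lower and 0 higher by the edgeR test, 18 were lower at an unadjusted p under 0.05, and the summed level of the list was 1503 and 1260 CPM in the controls and 908 and 952 CPM in the cKO libraries. Of 12 progenitor genes 5 were lower and 0 higher (3636 to 4072 CPM in controls, 3176 to 3401 CPM in the cKO), and of 7 tested forebrain genes 2, Lhx2 among them, were lower and 0 higher (summed over 8, 789.7 to 938 and 639 to 663 CPM). All 8 forebrain genes had counts in the libraries, with Lhx2 at 298 and 216 CPM in the controls and 157 and 125 CPM in the cKO. Of 9 tested erythroid genes 6 were lower and 0 higher (3116 to 3333 and 2081 to 2146 CPM). Of the 13 erythroid genes matched, the adult globin genes Hba-a1, Hba-a2, Hbb-bt and Hbb-bs were at 0 in every library. How reads that match several similar genes were counted was not examined, so these values do not show that the genes were silent. Among 7 tested genes of cranial sensory neurons and placodes 2, Pou4f1 and Isl1, were lower and 0 higher (121 to 129 and 108 to 135 CPM). No gene was called among 10 endothelial (317 to 330 and 278.4 CPM in both cKO libraries), 11 tested neural crest and mesenchyme (918 to 1010 and 599 to 920 CPM) and 5 microglial genes (23.1 to 24.4 and 16.98 to 21.6 CPM) by edgeR. At an unadjusted p under 0.05 these lists held 5, 2 and 0 lower and 1, 0 and 0 higher genes. The part of these lists in the receptor differences was not tested, and in bulk tissue fewer cells of a type and less RNA per cell cannot be told apart.

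Of the 47 receptor genes, 29 passed the count filter and were tested, and by edgeR's quasi-likelihood test 1 was lower in the cKO and 0 were higher (called at 0.05 after adjustment over 14235 genes). The gene that fell was Grik2, which encodes a kainate receptor subunit. Among all genes tested 3.70% were called, 2.13% lower and 1.57% higher, so 1 of 29 is close to the share of the whole table. At an unadjusted p under 0.05, 7 receptor genes were lower (among them Grik2, Grik5, Grik1, Gria2, Gabrb2 and Gabbr1), where 9.10% of all genes were lower, and 1 was higher (Grin2a), where 8.43% of all genes were higher. Neither limma-voom nor DESeq2 called a receptor gene higher. In 12 of the 29 genes both cKO libraries lay below both controls, and in 4 both lay above. Over all genes tested these shares were 24.0% and 24.3%. The median log2 fold change of the 29 genes was −0.14, beside −0.00028 for all genes tested, and 19 of the 29 were below 0, beside 50.1% of all genes. A size over 2-fold without overlap was seen in 4 lower genes (among them Gria2, Grik1 and Grik2), where 2.09% of all genes were that much lower, and in 1 higher gene (Grin2a), where 1.38% were higher.

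**Figure D1:**
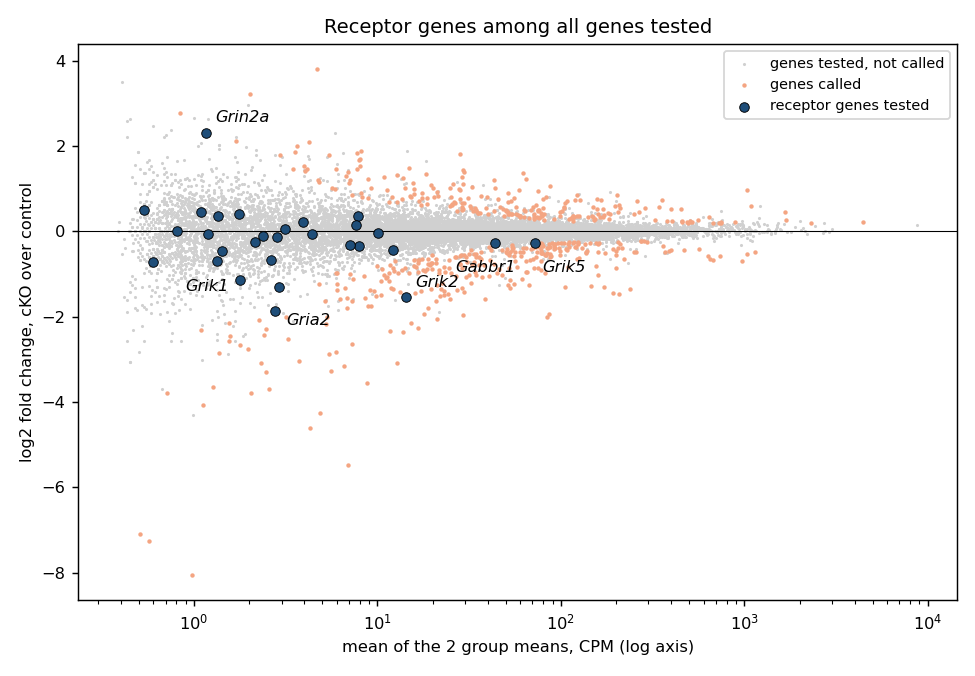
Log2 fold change (cKO over control) of every gene tested against its mean level in CPM on a log axis; grey points were not called, orange points were called at an adjusted p under 0.05 and blue points are the 29 receptor genes. Grik2 sits at −1.55 outside the grey cloud, while Gria2, Grik1 and Grin2a lie at low levels where uncalled genes spread as far.

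Receptor transcripts were scarce at this stage. All 47 genes together took 0.0258% and 0.0246% of counts in the controls and 0.0202% and 0.0199% in the cKO libraries. Summed, this was 257 and 245 CPM in the controls and 202 and 201 CPM in the cKO libraries, which did not overlap. Grik5 and Gabbr1 alone gave 50.6% to 52.7% of the receptor counts in each library. In the controls 24 genes had a mean of at least 1 CPM, and 5 had at least 10 CPM, namely Grik5, Gabbr1, Grik2, Gabrb2 and Gabra3. Compared per length, 7 genes reached 1 CPM per kilobase of exon in the controls. Of these, Grik5 was at 15.3 ± 0.47 CPM per kilobase (SD, n = 2), Gabbr1 at 6.19 ± 0.30, Gabra3 at 2.58 ± 0.30, Gabrb2 at 2.19 ± 0.43, Grik2 at 1.61 ± 0.26 and Gria4 at 1.41 ± 0.15. Grik5 and Gabbr1 stood apart from each other and from the rest by more than these spreads, whereas from Gabra3 to Gria4 each gene differed from the next in this order by less than the sum of their SDs.

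**Figure D2:**
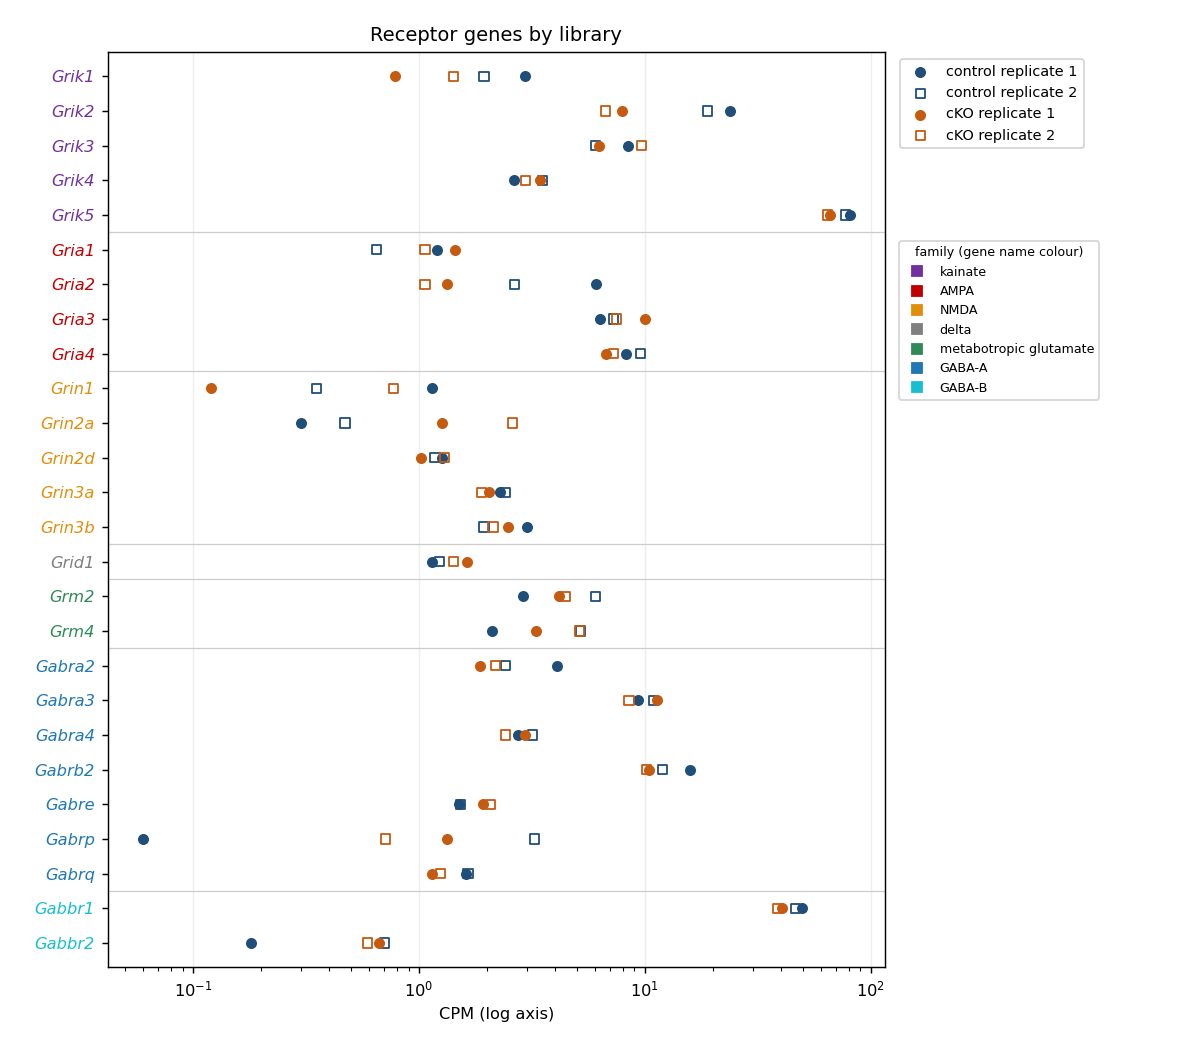
Level of 26 of the 29 tested receptor genes in each of the 4 libraries, in CPM on a log axis; blue symbols are controls, orange symbols cKO libraries, circles replicate 1 and open squares replicate 2, and the colour of a gene name gives its family. Grik2 and Gria2 show both cKO libraries to the left of both controls, and Grin2a shows both to the right.

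The kainate receptor genes held the called difference. Kainate receptors combine the low-affinity subunits of Grik1, Grik2 and Grik3 with the high-affinity subunits of Grik4 and Grik5, and the latter need a low-affinity partner to form channels. Grik2 (GluK2; GRCm38 chromosome 10, 49093680 to 49790161) was at 23.8 and 18.9 CPM in the controls and at 7.90 and 6.68 CPM in the cKO libraries. The groups did not overlap, and each pair of replicates lay closer together than the groups. The log2 fold change was −1.55 (SE 0.17, 95% interval −1.95 to −1.15, edgeR adjusted p = 0.0057), so that Grik2 was 2.93-fold lower. Raw counts were 397 and 321 in the controls and 131 and 113 in the cKO. With each library left out in turn, the value stayed between −1.71 and −1.37 and the adjusted p between 0.00099 and 0.025. In the authors' deposited table Grik2 had a log2 fold change of −1.55 and an adjusted p of 2.23e-08.

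The other kainate genes were not called. Grik5 (GluK5; chromosome 7, 25009849 to 25075694), the receptor gene with the highest level, was at 80.8 and 77.4 CPM in the controls and at 66.2 and 64.5 CPM in the cKO libraries. The groups did not overlap, but the difference was small (log2 fold change −0.28, SE 0.06, 95% interval −0.42 to −0.13, edgeR adjusted p = 0.055). Grik1 (GluK1; chromosome 16, 87895901 to 88290863) was at 2.94 and 1.94 CPM in the controls and at 0.783 and 1.42 CPM in the cKO (log2 fold change −1.14, SE 0.44, edgeR adjusted p = 0.24). Its value depended on the libraries used, from −1.63 without cKO replicate 2 to −0.78 without cKO replicate 1. Grik3 (GluK3) was at 8.46 and 6.06 CPM in the controls and at 6.27 and 9.70 CPM in the cKO. Grik4 (GluK4) was at 2.64 and 3.53 CPM and at 3.44 and 2.96 CPM. Both genes overlapped between groups, with 95% intervals of −0.48 to 0.76 and −0.64 to 0.74, which leave out a 2-fold change either way.

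Because Grik2 fell and Grik3 was not called, their shares of the low-affinity kainate counts were set side by side. Here and in the shares below, counts were not scaled for gene length, so a share is no proportion of transcripts. Grik2 gave 67.6% (exact 95% binomial interval 63.7 to 71.4) and 70.2% (65.8 to 74.4) of the counts of Grik1 to Grik3 in the controls. In the cKO libraries it gave 52.8% (46.4 to 59.2) and 37.5% (32.1 to 43.3). Both cKO libraries lay below both controls, which restates the values of Grik2 and Grik3 above and is no further test. These intervals cover counting error only, and reads without molecular identifiers are not independent molecules. The intervals of the controls met, and those of the cKO libraries did not. Over all genes, replicates of a group differed by more than sampling noise.

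**Figure D3:**
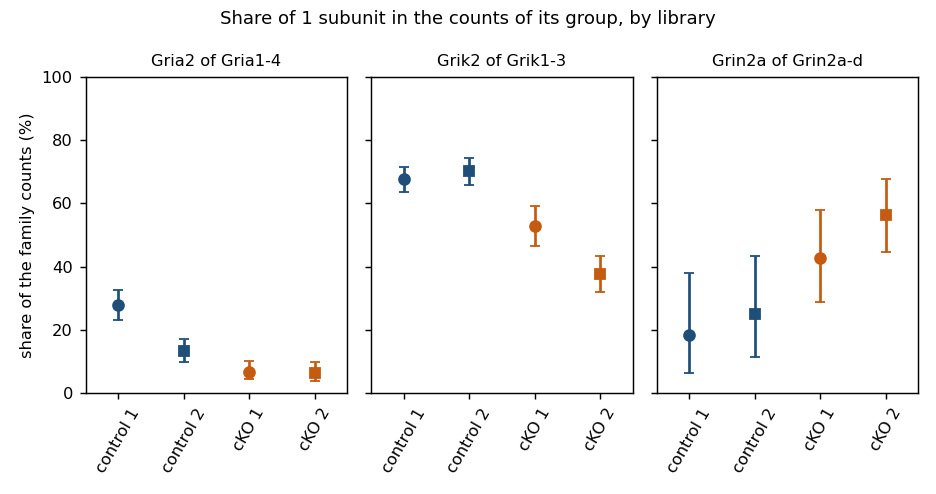
Share of 1 subunit gene in the counts of its group in each library, as a percentage, with exact 95% binomial intervals as bars; blue is control and orange cKO. The Gria2 share is 27.7% and 13.2% in the controls and 6.79% and 6.29% in the cKO, the Grik2 share 67.6% and 70.2% against 52.8% and 37.5%, and the Grin2a share 18.5% and 25.0% against 42.9% and 56.4%.

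AMPA receptors carry fast excitatory transmission, and the subunit of Gria2 (GluA2) makes the channel nearly impermeable to calcium. Gria2 (chromosome 3, 80681450 to 80804227) was at 6.06 and 2.65 CPM in the controls and at 1.33 and 1.06 CPM in the cKO libraries. The groups did not overlap, but the controls differed from each other by more than 2-fold. The log2 fold change was −1.86 (SE 0.46, 95% interval −2.94 to −0.78, edgeR adjusted p = 0.080). The gene was called by DESeq2 (log2 fold change −1.87, SE 0.57, adjusted p = 0.031) and not by limma-voom (adjusted p = 0.16). The authors' deposited table holds the same DESeq2 fold change and SE, with an adjusted p of 0.030, and so is no separate call. Control replicate 1 bore on the value: without it the log2 fold change was −1.14 (adjusted p = 0.37), and without control replicate 2 it was −2.33 (adjusted p = 0.0083). Gria2 exons share 111 bases with the small gene Gm25749.

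The other AMPA genes were not called. Gria4 (GluA4) had the highest level per length of the family, and was at 8.22 and 9.54 CPM in the controls and at 6.75 and 7.28 CPM in the cKO (log2 fold change −0.34, SE 0.18, edgeR adjusted p = 0.39). Gria3 (GluA3) was at 6.36 and 7.30 CPM in the controls and at 10.0045 and 7.51 CPM in the cKO (0.36, SE 0.21, edgeR adjusted p = 0.43). Gria1 (GluA1) was near 1 CPM in every library, from 0.647 to 1.45 CPM, and the groups overlapped. Of the AMPA counts, Gria2 made up 27.7% (exact 95% interval 23.2 to 32.7) and 13.2% (9.76 to 17.2) in the controls, and 6.79% (4.30 to 10.1) and 6.29% (3.77 to 9.76) in the cKO libraries. The share was lower in both cKO libraries, although the intervals of both met that of control replicate 2. It restates the values of the AMPA genes and is no further test. Gria3 took 29.1% and 36.3% in the controls and 51.2% and 44.4% in the cKO. Merged exons of Gria2 (15548 bases) are longer than those of Gria3 (9859) and Gria4 (6305), which raises the Gria2 share of counts.

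The 250 bases before a transcript start given by RefSeq are shown for Grik2 and Gria2, the receptor genes with the lowest log2 fold changes, and for Grik5, the most abundant. Sequences are from RefSeq on GRCm38.p6, 5′ to 3′ on the strand of the gene. Capitals mark matches on either strand to the E-box letters CANNTG, the general site of bHLH factors, or to GGACAG, which with TTCAGCACC makes up the core letters of the RE1 element, the site of the repressor REST.
Grik2: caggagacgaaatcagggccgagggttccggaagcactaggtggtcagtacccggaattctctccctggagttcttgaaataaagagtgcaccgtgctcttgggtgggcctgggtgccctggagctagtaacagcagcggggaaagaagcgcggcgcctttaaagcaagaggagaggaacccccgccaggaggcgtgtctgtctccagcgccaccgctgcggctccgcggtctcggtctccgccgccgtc
Gria2: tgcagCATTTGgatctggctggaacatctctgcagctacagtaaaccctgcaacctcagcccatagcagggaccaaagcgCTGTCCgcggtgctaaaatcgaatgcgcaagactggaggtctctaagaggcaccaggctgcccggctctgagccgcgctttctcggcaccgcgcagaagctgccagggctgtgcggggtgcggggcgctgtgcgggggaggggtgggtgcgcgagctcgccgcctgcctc
Grik5: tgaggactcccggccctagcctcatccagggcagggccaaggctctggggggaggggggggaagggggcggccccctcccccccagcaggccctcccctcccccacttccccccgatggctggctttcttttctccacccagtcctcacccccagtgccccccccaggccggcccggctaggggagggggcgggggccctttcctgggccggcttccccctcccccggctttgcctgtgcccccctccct
These windows lie at chr10:49788755-49789004, chr3:80802836-80803085 and chr7:25072370-25072619 on the minus strand. Each lies inside the span of its gene given above, so the start used is not the outermost one of the gene. The Grik2 window had a GC content of 62.8% with 20 CG dinucleotides and no match to either motif. That of Gria2 had 64.8% and 19, with 1 CANNTG match, CATTTG, and 1 GGACAG match. That of Grik5 had 75.2% and 8, with no match. CANNTG was found in 66.2% of all 32851 windows of this length and in 18 of 39 windows of the receptor genes, GGACAG in 18.7% and in 13 of 39, and TTCAGCACC in 0.301% and in 1 of 39, that of Grm2. CAGCTG, an E-box form that is part of the CANNTG matches, was in 13.0% and in 1 of 39, that of Gabrp. The table matched 32 of the 47 genes, and Grik1 and Grin2a are among the 15 without an entry.

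NMDA receptors need the subunit of Grin1 (GluN1) together with those of Grin2 or Grin3 genes. Grin1 had only 19 and 6 counts in the controls and 2 and 13 in the cKO libraries, which overlapped. Its exons share 1307 bases with the opposite-strand gene Grin1os, and since counting set no strand option, reads there cannot be assigned to either gene with certainty. Per length, the family was led in the controls by Grin3b (0.750 ± 0.23 CPM per kilobase), Grin3a (0.191 ± 0.0077) and Grin2d (0.183 ± 0.0088), each given as SD with n = 2. Grin3b was at 2.999 and 1.94 CPM in the controls and at 2.47 and 2.13 CPM in the cKO, Grin3a at 2.28 and 2.41 and at 2.05 and 1.89 CPM, and Grin2d at 1.26 and 1.18 and at 1.02 and 1.301 CPM. None of these was called. Exons of Grin3b share 1059 bases with Tmem259 and those of Grin2d 643 bases with Gm45441, both on the opposite strand, so their levels are uncertain.

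Grin2a had the highest log2 fold change of the tested receptor genes. Grin2a (GluN2A; chromosome 16, 9567901 to 9996083), a subunit known mainly from the postnatal brain, had 5 and 8 counts in the controls and 21 and 44 in the cKO libraries, or 0.300 and 0.471 CPM against 1.27 and 2.60 CPM. The cKO libraries lay above both controls and differed from each other by about 2-fold. The log2 fold change was 2.30 (SE 0.56, 95% interval 0.99 to 3.62, edgeR adjusted p = 0.077). The gene passed the count filter through its cKO counts. Without cKO replicate 2 the value was 1.70 (adjusted p = 0.41). Grin2b and Grin2c were not tested, being too low: Grin2b had 1 and 3 counts in the controls and 7 and 4 in the cKO, and Grin2c had 0 and 1 in the controls and 4 and 8 in the cKO. Of the counts of Grin2a to Grin2d, Grin2a made up 18.5% (exact 95% interval 6.30 to 38.1) and 25.0% (11.5 to 43.4) in the controls. In the cKO it made up 42.9% (28.8 to 57.8) and 56.4% (44.7 to 67.6). The interval of cKO replicate 1 met those of both controls. This share restates the counts of Grin2a above and is no further test.

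The delta and metabotropic glutamate receptors were low. Grid1, a delta subunit that binds cerebellins at synapses, was at 1.14 and 1.24 CPM in the controls and at 1.63 and 1.42 CPM in the cKO libraries (log2 fold change 0.36, SE 0.38, edgeR adjusted p = 0.71). Of 8 metabotropic genes 2 were tested, Grm2 and Grm4, which encode receptors that lower cyclic AMP. Grm2 was at 2.88 and 6.06 CPM in the controls and at 4.16 and 4.44 CPM in the cKO, and Grm4 at 2.10 and 5.18 and at 3.31 and 5.15 CPM. In both genes control replicate 1 was the lowest library and control replicate 2 the highest, so the cKO libraries lay between the controls. Grm2 shares 470 exon bases with the opposite-strand gene Gm28111. Grm3, of the same subgroup, had 9 and 16 counts in the controls and 3 and 1 in the cKO, and Grm5, a receptor of the calcium-releasing subgroup, had 6 and 3 and then 0 and 0; neither was tested.

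GABA-A receptor genes included 19 members, of which 10 were tested and 0 called, with a median log2 fold change of −0.38, where 3.70% of all genes tested were called and their median was −0.00028. At an unadjusted p under 0.05, 2 of the 10 were lower (Gabrb2 among them) and 0 higher, beside 9.10% and 8.43% of all genes. The gamma subunit genes Gabrg1, with 4 to 8 counts, and Gabrg3, with 3 to 5 counts, were too low to test.

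Among the beta subunits, which carry the GABA site together with an alpha subunit, Gabrb2 was at 15.8 and 12.01 CPM in the controls and at 10.4 and 10.2 CPM in the cKO (log2 fold change −0.43, SE 0.17, edgeR adjusted p = 0.26). Gabrb1 was nearly silent, with 0 counts in both controls and 2 and 3 in the cKO libraries. Among the alpha subunits, which set the pharmacology of the receptor, Gabra3 was the most abundant, at 9.30 and 10.9 CPM in the controls and at 11.3 and 8.52 CPM in the cKO. It overlapped between groups (log2 fold change −0.03, 95% interval −0.48 to 0.42). Gabra2 was at 4.08 and 2.41 CPM in the controls and at 1.87 and 2.19 CPM in the cKO (−0.68, SE 0.36, edgeR adjusted p = 0.39). Gabra4, at 2.43 to 3.18 CPM, overlapped between groups. Gabra5 had 1 to 7 counts, and Gabra6, known from cerebellar granule cells, had 0 counts in every library, which allows up to 3 counts or 0.177 to 0.181 CPM.

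Other GABA-A genes were at low levels. Gabre was at 1.4997 and 1.53 CPM in the controls and at 1.93 and 2.07 CPM in the cKO, and Gabrq, in the same cluster on the X chromosome, at 1.62 and 1.65 and at 1.15 and 1.24 CPM. In both genes the groups did not overlap, one in each direction, and neither was called (edgeR adjusted p = 0.62 and 0.61). Gabrp had 1 and 55 counts in the controls and 22 and 12 in the cKO libraries. Its log2 fold change of −0.70 (SE 1.08) turned to 3.92 without control replicate 2 (edgeR adjusted p = 0.12) and was 0.87 with limma-voom. The rho subunits (Gabrr1, Gabrr2 and Gabrr3) and Gabrd had 0 to 6 counts.

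Most GABA-A genes sit in 4 chromosomal clusters, and 2 of these are described here. In the cluster on chromosome 5 (70751047 to 72149572), with Gabrg1, Gabra2, Gabra4 and Gabrb1, summed counts were 121 and 100 in the controls and 90 and 85 in the cKO libraries. In that on the X chromosome (72256926 to 72842607), with Gabre, Gabra3 and Gabrq, they were 207 and 240 and then 238 and 200. The summed counts did not overlap between groups on chromosome 5, mostly through Gabra2, and overlapped on the X chromosome.

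Of the GABA-B pair, Gabbr1 binds GABA and Gabbr2 couples to the G protein, and both are needed for a working receptor at the cell surface. Gabbr1 (chromosome 17, 37045966 to 37074305) was at 49.7 and 46.4 CPM in the controls and at 40.3 and 38.7 CPM in the cKO libraries. The groups did not overlap, and the difference was small (log2 fold change −0.28, SE 0.08, 95% interval −0.46 to −0.10, edgeR adjusted p = 0.11). Gabbr2 had 3 and 12 counts in the controls and 11 and 10 in the cKO. Gabbr1 thus made up 98.4% to 99.6% of GABA-B counts in each library.

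**Figure D4:**
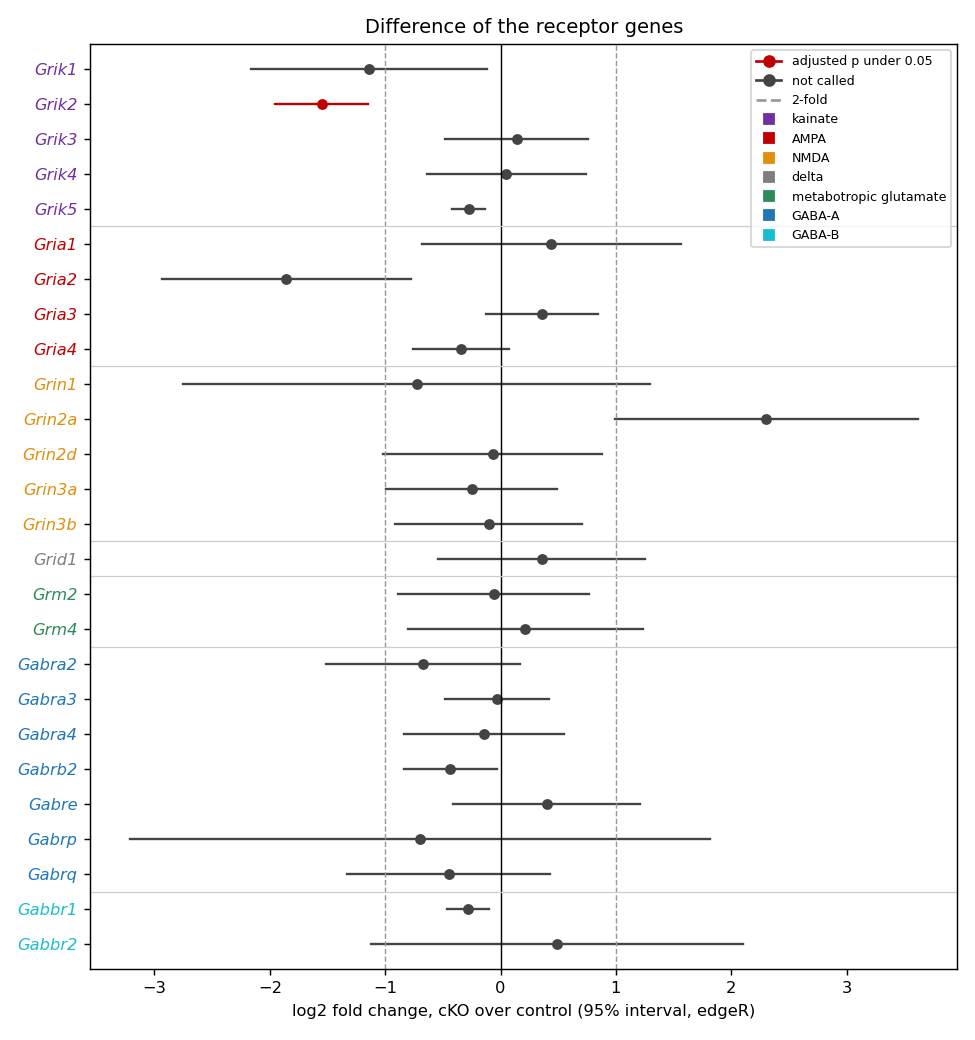
Log2 fold change (cKO over control) of 26 of the 29 tested receptor genes with its 95% interval, grouped by family (colour of the gene name); red is an adjusted p under 0.05 and dashed lines mark a 2-fold change. Only Grik2 is red, with an interval of −1.95 to −1.15, and 12 of the 26 intervals lie wholly inside the dashed lines.

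The precision differed widely between the receptor genes. The SE of the log2 fold change ran from 0.06 for Grik5 to 1.08 for Gabrp. For 13 of the 29 genes the 95% interval left out a 2-fold change in either direction, and for 16, Grik2 among them, it reached or passed that size. The interval of Grik2 lay wholly beyond 2-fold lower. Of the 18 untested genes, 15 had under 10 counts in every library, and the highest count was 19.

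**Figure D5:**
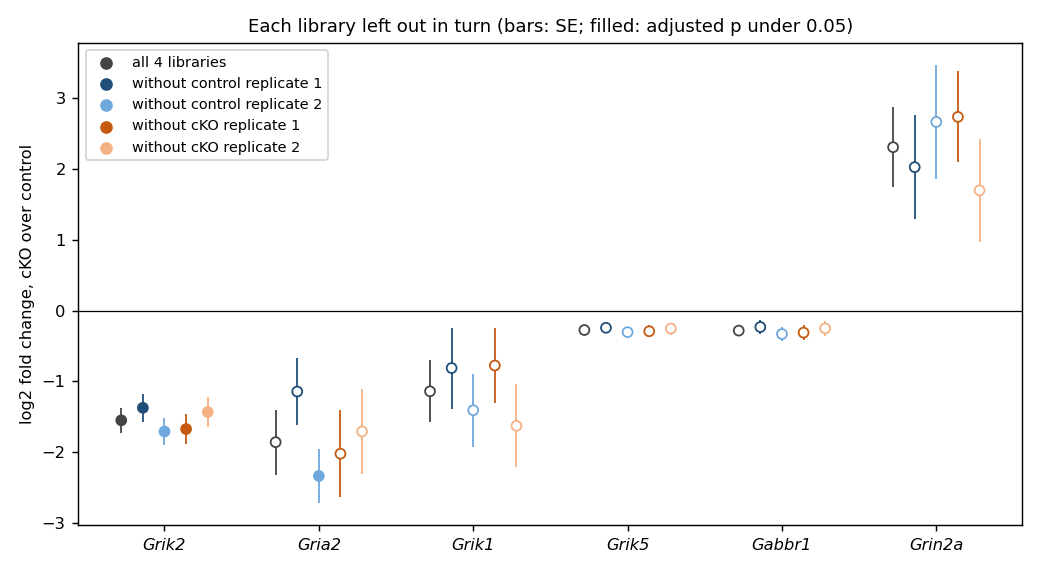
Log2 fold change (cKO over control) of 6 receptor genes with all 4 libraries and with each library left out in turn; bars are SE and filled symbols have an adjusted p under 0.05. Grik2 is filled in all 5 fits, between −1.71 and −1.37, and Gria2 only without control replicate 2.

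Proteins associated with these receptors were taken from a list of 50 genes. It held mainly scaffold, auxiliary and trafficking genes, and also the chloride cotransporter genes Slc12a2 and Slc12a5. Of the 50 genes 45 were tested, 3 were lower and 1 was higher. The median log2 fold change was −0.07 beside −0.00028 for all genes. Over all genes 2.13% were lower and 1.57% higher. At an unadjusted p under 0.05, 10 of the 45 were lower and 3 higher, beside 9.10% and 8.43% of all genes. The summed level of the list was 1655 CPM in both controls and 1596 and 1595 CPM in the cKO libraries. Nlgn1, which encodes the adhesion protein neuroligin of excitatory synapses, was at 5.10 and 3.83 CPM in the controls and at 0.603 and 0.296 CPM in the cKO (log2 fold change −3.29, SE 0.43, edgeR adjusted p = 0.0093). Nlgn2, the neuroligin of inhibitory synapses, was at 111 and 116 CPM and at 92.5 and 94.6 CPM (−0.27, SE 0.05, edgeR adjusted p = 0.042). Lhfpl4, whose protein ties GABA-A receptors to neuroligin, was at 57.9 and 58.9 CPM and at 37.2 and 46.0 CPM (−0.49, SE 0.10, edgeR adjusted p = 0.049). Dlg1, a scaffold of glutamate receptors that is also present in epithelial cells, was the gene that rose, from 139 and 148 CPM to 184 and 180 CPM (0.34, SE 0.05, edgeR adjusted p = 0.018). In each of these 4 genes the groups did not overlap. The gephyrin gene Gphn, which encodes the scaffold of inhibitory synapses, was at 34.4 and 27.7 CPM in the controls and at 34.1 and 34.0 CPM in the cKO, and overlapped. Neto2, a kainate receptor auxiliary subunit, was at 60.7 and 70.0 CPM in the controls and at 60.4 and 58.1 CPM in the cKO, which lay just below the controls (−0.14, edgeR adjusted p = 0.44).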

How the data were processed

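PolyA RNA of 4 forebrain libraries, 2 per genotype, was compared. Per the file headers, the authors ran featureCounts 2.0.1 on paired-end reads over exons per gene, with no strand option and RefSeq genes of mm10 (GRCm38), and the deposited table holds raw counts; per the submitters' processing notes, HISAT2 and DESeq2 were also used. The authors' deposited comparison table holds log2 fold changes, p-values, a normalized signal per library and a Wald score; only its fold changes and p-values are printed, where it is named. The number of sample columns that matched no sample was 0.

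Genes were kept by filterByExpr (minimum count 10), scaled by TMM and tested with edgeR 4.0.16 (glmQLFit and glmQLFTest, R 4.3.3), with Benjamini-Hochberg adjustment over all genes tested and 0.05 as threshold. The SE is the size of the log2 fold change over the root of F, and the 95% interval uses the total degrees of freedom. The step was tested on simulated counts, with changes put only into genes at a mean of at least 5 CPM. That test therefore does not cover changes in genes below this level, such as Gria2, Grik1 and Grin2a. Replicates of a group differed by more than sampling noise (chi-square per degree of freedom 4.78 and 4.07). CPM per kilobase used merged exon lengths from GENCODE M21, in place of RefSeq exons. Exon overlaps between genes were also taken from GENCODE M21, and were not checked against the RefSeq genes used for counting. Coordinates are from RefSeq on GRCm38.p6. The alternatives tried were scaling by upper quartile or by DESeq2 size factors, testing without a count filter or above a mean of 5 CPM, DESeq2 1.42.0 and limma-voom (limma 3.58.1) as tests, a replicate block, leaving out each library, and the longest transcript as length.

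Full statistics are given for called genes and for genes with non-overlapping libraries and a change over 2-fold, values for the 3 most abundant genes of each family per length, and called genes of the associated list; Grik4, Gria1, Grin1, the further GABA-A genes, Gphn, Neto2 and the untested genes with values were named after their values were seen. The members, lists and rules were chosen with earlier results of these data known. Some genes that these rules name are not reported here, although they stay in all counts.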

Additional observations from a re-analysis of the deposited data

How the results depend on the processing

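Grik2 was lower and called in all 11 alternatives, with a log2 fold change from −1.71 to −1.37. The count of receptor genes lower in the cKO, 1 with all libraries and edgeR, was 2 with the DESeq2 Wald test and 1 to 2 with a library left out, the added gene being Gria2 in both cases (without control replicate 2). The count higher was 0 throughout. Of 198 values of the other 19 named genes under the alternatives, 196 kept their side of the threshold, and the 2 that became calls were those of Gria2. Over all genes, 526 were called, 348 with the replicate block and 211 to 769 with a library left out (300 without control replicate 1, 769 without control replicate 2, 334 without cKO replicate 1 and 211 without cKO replicate 2). Same-numbered libraries did not deviate together (correlation −0.053 across genes). This cannot settle whether the numbers pair the libraries, and the labels do not say so. With the replicate block 1 receptor gene was lower, with a value of −1.55 for Grik2. With the longest transcript as length, 9 receptor genes in place of 7 reached 1 CPM per kilobase. The 19 named genes other than Grik2 were not called with all libraries, so staying uncalled says little of their direction. Among these 19, Gabbr2, Gabra3, Grik3, Grin2d, Grin3b, Grm2 and Grm4 changed sign with a library left out. Grik4, Grin1 and Gabrp, which were named after their values were seen, did so too. Grm2 went from −0.06 to 0.58 without control replicate 2, and Grm4 from 0.22 to −0.29 without control replicate 1. Low counts limit the values of the genes under about 1 CPM. Where 1 library of a group is left out, the one that remains is taken to vary as much as those of the other group.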

Other observations

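Channels opened by other transmitters were scarce too, with a summed level in the controls between those of the GABA-B and kainate receptor genes. Of 20 genes for nicotinic acetylcholine, glycine and 5-HT3 receptor subunits, 11 were tested and 0 were called in either direction by edgeR (2 lower and 0 higher at an unadjusted p under 0.05, beside 9.10% and 8.43% of all genes), with a median log2 fold change of 0.0087 and a summed level of 62.3 and 60.3 CPM in the controls and 55.7 and 57.5 CPM in the cKO libraries. Chrna6 and Chrna9 were at 0 in every library. Highest in CPM, which was not scaled for gene length here, were the nicotinic subunit genes Chrna4 and Chrna3. Chrna4 was at 17.1 and 18.8 CPM in the controls and 12.3 and 14.3 CPM in the cKO. Chrna3 was at 13.0 and 10.4 CPM in the controls and 15.2 and 13.5 CPM in the cKO. Chrnb2, whose product pairs with that of Chrna4 in the main brain form of the receptor, was at 11.8 and 10.01 CPM in the controls and 6.03 and 7.81 CPM in the cKO (log2 fold change −0.65, SE 0.19, edgeR adjusted p = 0.13). In these 3 genes the groups did not overlap, Chrna4 and Chrnb2 being lower and Chrna3 higher in both cKO libraries. Glrb, the beta subunit gene of the glycine receptor, was at 7.14 and 5.71 CPM in the controls and 7.29 and 5.38 CPM in the cKO, and overlapped. These genes were named after their values were seen.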
